A study of Mus musculus and Rattus norvegicus with 18 samples.

Results

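The genes of the cytosolic ribosomal proteins were followed through the response of 2 kinds of kidney cell to TGF-β1 with and without narciclasine. A gene belonged to the set when its symbol is that of a numbered Rpl or Rps protein, with the usual a, l or x forms, or is Rpsa, Rplp0, Rplp1 or Rplp2. It also had to reach 1 CPM, a count scaled to a common library size, in 3 libraries. This gave 80 of 22322 genes in mouse primary tubular epithelial cells (TECs) and 73 of 22050 genes in NRK49F, a rat kidney fibroblast line. Of 83 distinct symbols, 70 were members in both, 10 in TECs only and Rps10l1, Rps19l2 and Rps3a in NRK49F only. The match was by symbol alone. No rat entry carried the symbol Rpl22, Rps14, Rps19 or Rps26. Mouse Rps3a1 and rat Rps3a are the same gene under different symbols and were counted apart. The symbols Rpl3l, Rpl10l and Rpl39l fell below 1 CPM in TECs. In NRK49F 10 symbols did, and 7 of them had no count at all, among them Rpl8, Rpl35a and Rps20. A count of 0 over the 9 rat libraries allows up to 0.021 CPM, a limit of 3 counts over the group that covers counting error only. In TECs Rpl8, Rpl35a and Rps20 had 101668, 20950 and 25598 counts. Whether reads of these rat genes were lost or given to other entries was not tested. A count of 0 here need not mean that the mRNA was absent.

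Each kind of cell had 3 groups of 3 libraries. Control cells were kept in medium alone, the second group received 5 ng/ml TGF-β1 for 24 h, and the third group took 20 nM narciclasine for 2 h before TGF-β1 was added to it. All groups were grown with 10% fetal bovine serum and starved of serum for 6 h before treatment. No library of narciclasine alone was analysed here, so its effect in cells without TGF-β1 cannot be told apart from an effect on the TGF-β1 response. Kind of cell and species go together. NRK49F is a single line, and the labels do not tie the TEC replicates to animals, so p-values measure only the spread between these libraries, which may be technical. In bulk RNA, fewer cells of a type and less RNA per cell cannot be told apart.

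Ribosomal proteins are made in equal numbers for assembly with ribosomal RNA in the nucleolus, and their mRNAs are among the most abundant of a cell. Most of these mRNAs begin with a terminal oligopyrimidine (TOP) tract, a run of C and T through which mTOR and the protein LARP1 control how well they are translated and how long they are kept. Narciclasine, an alkaloid of daffodil bulbs, binds the large ribosomal subunit and blocks formation of the peptide bond.

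The 30 bases that follow show the longest C or T run near the annotated start of 9 mouse members on which the results below turn. They are RefSeq sequence of build GRCm38.p6, written 5′ to 3′ on the gene's own strand, with the run in capitals. A run that reached past the searched 40 bases either side of the start is shown whole.
Rpl22l1: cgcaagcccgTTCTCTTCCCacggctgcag
Rpl11: ccggaagTCTCCCTCTCTCTTCCTgttctc
Rpl6: cgctgccttagTTCTCTTTCCCgtcttgca
Rpl12: gcgagagctgagCTTTTCCgcctatatccg
Rps9: caaccgccttgTCTCTCTTTgtctcgggcc
Rplp0: aggaccgcctggTTCTCCTataaaaggcac
Rps2: actataaattgTCCCTTCCgcggcgcctcc
Rps24: gagcggTCCTCTTTTCCTCCTCTCCagctc
Rpl7l1: cgtcgaggcgggCCTCTCTaccccgcccgg
The windows lie at chr3:28805499-28805528 for Rpl22l1 (plus strand), chr4:136053358-136053387 for Rpl11 (minus strand), chr5:121204521-121204550 for Rpl6 (plus strand), chr2:32961662-32961691 for Rpl12 (plus strand) and chr7:3704024-3704053 for Rps9 (plus strand). The others lie at chr5:115559466-115559495 for Rplp0 (plus strand), chr17:24720078-24720107 for Rps2 (plus strand), chr14:24490710-24490739 for Rps24 (plus strand) and chr17:46782671-46782700 for Rpl7l1 (minus strand). RefSeq lists 2 promoters for Rps24, and one of them is shown. In Rpl22l1 the run begins at base 2 after the annotated start, in Rplp0 at base 12 and in Rpl11 at base 14. It begins at base 27 in Rps2 and at base 32 in Rpl6, and 6 bases before the start in Rps9. In Rpl12, Rps24 and Rpl7l1 the run lies before the annotated start. No rat sequence was searched. Where transcription began in these cells was not measured.

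A promoter was listed for 60 of the 80 mouse members. A run of at least 10 C or T on the gene's own strand, within 40 bases either side of the start, was present in 35 of them (58.3%), against 4418 of 27025 genes (16.3%). Within 250 bases before and 50 after the start, on either strand, the letters CCGGAAG stood in 25 members (41.7%, against 9.93% of genes) and AAGATGG in 10 (16.7%, against 7.28%). These motifs share the letters AAG and can overlap. Among the sequences shown, Rpl11 has CCGGAAG directly before its run. The matches describe letters only.

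Total counts were 16652016 to 25192716 per TEC library and 14695732 to 18463855 per NRK49F library. Of 9 tubular markers 8 reached 1 CPM in TECs, with a summed level of 6060 to 6110 CPM in control, 6300 to 6470 with TGF-β1 and 7210 to 7320 with added narciclasine. Slc34a1, the sodium phosphate transporter of the proximal tubule, stayed at or below 0.263 CPM. NRK49F expressed 1 of the tubular markers, Krt8. Of its fibroblast markers Thy1 and Dcn stayed at or below 0.0219 and 0.352 CPM, and the summed fibroblast level was 10800 to 12500, 31900 to 33900 and 16700 to 17100 CPM in the 3 groups. Most of that sum is Col1a1 and Col3a1, with means of 8140, 22200 and 12300 CPM and of 2830, 10300 and 4460 CPM. The receptor genes Pdgfra and Pdgfrb went from 379 to 170 and 99 CPM and from 131 to 73.6 and 56 CPM. The fibroblast sum in TECs was 96.5 to 98, 312 to 333 and 116 to 129 CPM, and the leukocyte marker sum was 29.8 to 30.5, 39.8 to 44.3 and 19 to 20.4 CPM. All 4 endothelial markers reached 1 CPM in TECs and summed to 71.4 to 77.4, 80.2 to 86.8 and 71.0 to 73.6 CPM. The part of these shifts in the results was not tested.

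Replicate 2 stood apart. In NRK49F control it was the highest of the 3 libraries for 66 of 73 members, and it was the lowest for 63 members with TGF-β1 and for 60 with added narciclasine. In TECs the same held for 59, 61 and 61 of 80 members. The offset was larger for short mRNAs in all 6 groups. In NRK49F control the median offset of replicate 2 from the mean of the other two was 0.252 log2 units for members with mRNAs longer than the median and 0.341 for shorter ones, with lengths from the mouse annotation, which holds 71 of the 73 members. With TGF-β1 it was −0.127 and −0.216, and with added narciclasine −0.158 and −0.192. In TECs the offsets of the longer and shorter mRNAs were 0.0394 and 0.116 in control, −0.0447 and −0.142 with TGF-β1, and −0.0456 and −0.186 with added narciclasine. The labels give no batch or RNA quality value, and the cause was not tested.

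**Figure D1:**
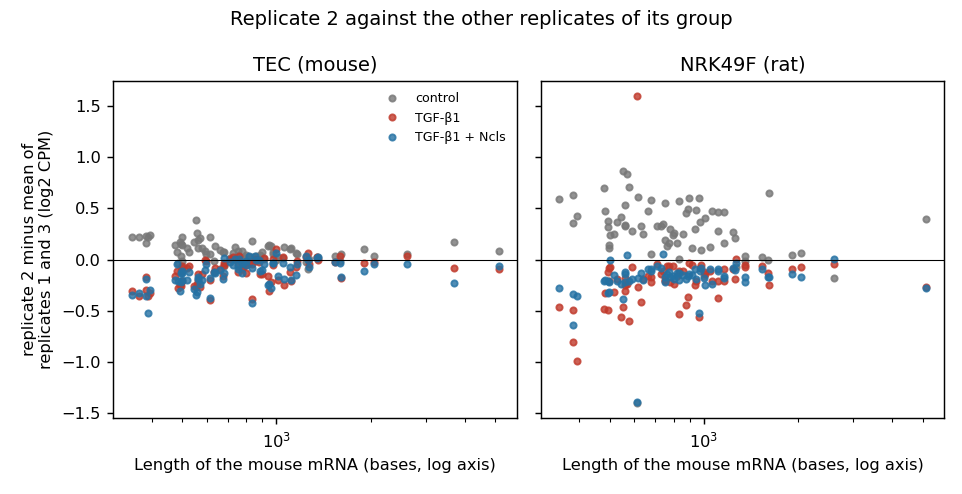
Offset of replicate 2 from the mean of replicates 1 and 3 (log2 CPM, y axis) against mouse mRNA length (bases, log axis), 1 point per member, in the 6 groups. Offsets are mostly above 0 in control and below 0 in the treated groups, and they are larger for short mRNAs.

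Levels differed widely between members. Per kilobase of mouse mRNA, the most abundant in control TECs was Rps2, a protein of the mRNA entry channel, at 1609 ± 14.4 CPM per kb (SD, n = 3), followed by the stalk base protein Rplp0 at 1032 ± 9.26 and Rpl23a, at the exit of the peptide tunnel, at 884 ± 40.8. The lowest were Rps15a at 36.9 ± 1.25, Rps20 at 37.3 ± 2.64, Rpl7l1 at 44.6 ± 1.18 and Rpl22l1 at 54.2 ± 9.20 CPM per kb. The values of Rps15a and Rps20 divide by annotated mRNAs of 5130 and 3706 bases, far longer than the median of 767, so the rank of these genes depends on the isoform chosen. Rpl7l1, which acts in early assembly, and Rpl22l1, a paralog of Rpl22, are not core members of most ribosomes.

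Members together held 2.99, 3.07 and 2.94% of the counts of the control TEC libraries, 2.80, 2.69 and 2.84% with TGF-β1, and 2.91, 2.82 and 3.02% with added narciclasine. The TGF-β1 libraries all lay below control, by 0.223 percentage points, and those with narciclasine overlapped both other groups. In NRK49F the shares were 2.01, 2.30 and 1.98% in control, 2.31, 2.15 and 2.43% with TGF-β1, and 2.85, 2.69 and 3.09% with added narciclasine. Here TGF-β1 and control overlapped, and the libraries with narciclasine lay above both, by 0.580 points against TGF-β1 and 0.782 against control. The exact two-sided permutation p was 0.1 for each pair of groups that did not overlap, the smallest that 3 against 3 allows, and in the other pairs it was 0.2 or, for TECs with narciclasine against control, 0.4. Scaled by TMM factors, which set aside extreme genes, the summed level in TECs was 1.01 times that of control with TGF-β1, with overlapping groups (exact p = 0.6), so the lower share was not seen on that scale. No NRK49F groups overlapped on it, and the mean sum with TGF-β1 was 1.25 times that of control, and with narciclasine 1.19 times that with TGF-β1 (exact p = 0.1 each). Transcripts encoded by mitochondria took 4.32 to 4.60, 5.36 to 5.75 and 3.94 to 4.02% of TEC counts in the 3 groups, and 2.85 to 3.01, 2.13 to 3.77 and 2.03 to 2.75% in NRK49F. With these transcripts left out of the totals, the members' share in TECs differed by −0.200 points between TGF-β1 and control (exact p = 0.1, no overlap), and in NRK49F it was 0.579 points higher with narciclasine than with TGF-β1 (exact p = 0.1, no overlap).

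**Figure D2:**
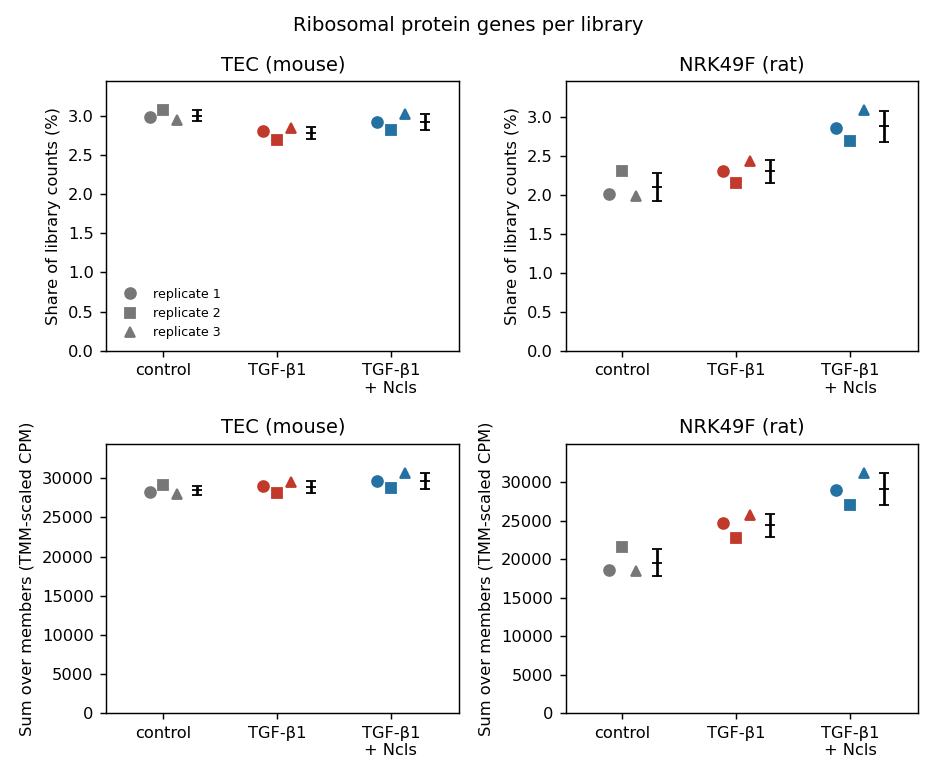
Members' share of all counts (percent) and their summed TMM-scaled level (CPM) in each library, by group, for TECs and NRK49F. Markers give replicates 1 (circle), 2 (square) and 3 (triangle), and bars the mean ± SD. NRK49F libraries with narciclasine lie above the other NRK49F groups, from 2.69 to 3.09%.

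In NRK49F, TGF-β1 raised ribosomal protein mRNAs more often than it lowered them, by modest amounts. Of 73 members 32 rose (43.8%) and 2 fell (2.74%), where 33.7% of all genes tested rose and 38% fell. The median log2 change was 0.253, against −0.050 for all genes, and the threshold for rose or fell was an adjusted p of 0.05. Among members with longer mouse mRNAs 20 of 35 rose (57.1%, median 0.248), and among shorter ones 12 of 36 (33.3%, median 0.294). Without replicate 2 of the control, 48 rose and 2 fell, and without replicate 2 of every group 58 and 2. Scaled by total counts 20 rose and 7 fell, so 74.1% of the changed members were higher in place of 94.1%.

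Rpl3 (ENSRNOG00000016896), whose loop reaches towards the peptidyl transferase centre, had 656, 667 and 649.6 CPM in the control libraries, 1173, 1095 and 1130 with TGF-β1 and 1337, 1156 and 1355 with added narciclasine. It rose with TGF-β1 by 0.78 (SE 0.0633, adjusted p = 3.13e-08), and those groups did not overlap. Rps9, a protein at the mRNA entry, had 275, 391 and 258 CPM in the control libraries, 652, 565 and 645 with TGF-β1 and 630.5, 554 and 658 with added narciclasine. It rose by 1.01 (SE 0.158, adjusted p = 5.15e-04), although control replicate 2 stood well above the other control libraries. Rpl21, a structural protein of the large subunit, had 99.4, 148 and 94.9 CPM in control and 237, 237 and 249.8 with TGF-β1. It rose by 1.08 (SE 0.162, adjusted p = 4.25e-04) with the same high control library, and a second rat entry of the same symbol leaves its counts uncertain.

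The counts by subunit, here and below, leave out 5 members classed by symbol as paralogs, Rpl7l1, Rpl22l1, Rps27l, Rps10l1 and Rps19l2. With no rat entry named Rps19, whether Rps19l2 holds the reads of Rps19 itself was not tested. Of the small subunit 12 of 26 members rose and none fell, with a median log2 change of 0.321. Rps2 and Rps3, which lie along the path of the mRNA, rose by 0.52 and 0.62, and Rpsa by 0.36. Rps6, the substrate of S6 kinase, had a change of 0.058 (SE 0.172, adjusted p = 0.780), which did not pass. Of the large subunit 19 of 42 rose and 2 fell, with a median of 0.243. Rplp0 rose by 0.39, Rpl4 by 0.41, Rpl13a by 0.57 and Rpl12, near the stalk base, by 0.47. The stalk protein Rplp2 rose by 0.69 (SE 0.240, adjusted p = 0.0234) with overlapping groups. The call ended without TGF-β1 replicate 1, TGF-β1 replicate 3, control replicate 1 or control replicate 3 (log2 0.52 to 0.68, adjusted p = 0.0584 to 0.0840). Its counts are identical to those of another rat entry, which makes it uncertain.

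The 2 members that fell belong to the large subunit. Rpl11 (ENSRNOG00000026260), which joins Rpl5 and the smallest ribosomal RNA of the large subunit in a particle that can bind Mdm2, had 372, 364 and 353 CPM in the control libraries, 296, 276 and 301 with TGF-β1 and 569, 544 and 621 with added narciclasine. It fell with TGF-β1, with a log2 change of −0.32 (SE 0.0590, adjusted p = 1.88e-04), while Rpl5 rose by 0.20 (SE 0.0573, adjusted p = 0.00521). Rpl23a had 385, 481 and 382 CPM in control and 331, 299 and 380 with TGF-β1 and a change of −0.31 (SE 0.114, adjusted p = 0.0347). Neither overlapped between the groups, Rpl23a only barely. The call of Rpl23a ended without TGF-β1 replicate 1, TGF-β1 replicate 2 or control replicate 2 (log2 −0.19 to −0.29, adjusted p = 0.0812 to 0.139).

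Narciclasine added to TGF-β1 also raised part of the set in NRK49F, including Rpl3 and Rpl13a, which had already risen with TGF-β1. Against TGF-β1 alone 30 of 73 members rose (41.1%) and 2 fell (2.74%), where 31.6% of all genes rose and 31.1% fell, and the median was 0.188 against −0.002. This comparison shares the TGF-β1 libraries with the one above. By subunit, 21 of 42 large subunit members rose and 1 fell (median 0.210), and 7 of 26 small subunit members rose and none fell (median 0.097). By mouse mRNA length, 21 of 35 longer members rose (60.0%, median 0.24) and 8 of 36 shorter ones (22.2%, median 0.12). The median SD between replicates was larger for shorter members, 0.177 against 0.0838 log2 units with TGF-β1 and 0.148 against 0.111 with added narciclasine. The shares that passed therefore do not compare sizes of change alone. Whether length has a part in the split by subunit was not tested. Without TGF-β1 replicate 2 the count of members that rose was 20, and without replicate 2 of every group 38 rose and 4 fell.

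Rpl11, low with TGF-β1, rose above its control level and changed by 0.99 (SE 0.0593, adjusted p = 3.61e-09). Rpl6 (ENSRNOG00000025936), a large subunit protein, had 452, 428 and 451 CPM in the control libraries, 473, 485 and 497 with TGF-β1 and 796, 806 and 851 with added narciclasine. All libraries with narciclasine were far above the rest, and Rpl6 rose by 0.75 (SE 0.0518, adjusted p = 1.37e-08). Rpl7l1 had 55.3, 50.4 and 59.3 CPM in the control libraries, 49.7, 50.3 and 54.2 with TGF-β1 and 88.4, 91.9 and 95.2 with added narciclasine. It rose by 0.84 (SE 0.0698, adjusted p = 9.49e-08), again with no overlap. Rpl23a rose by 0.83 and Rpl14 by 0.60.

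Rpl22l1 went the other way. This paralog of Rpl22 (ENSRNOG00000011817) had 13.7, 21.8 and 10.1 CPM in the control libraries, 33.5, 25.6 and 37.5 with TGF-β1 and 5.29, 3.97 and 5.37 with added narciclasine. It rose with TGF-β1 by 1.09 (SE 0.266, adjusted p = 0.00569) and fell with narciclasine, with a log2 change of −2.73 (SE 0.302, adjusted p = 6.49e-05), to below control. Against control its change was −1.64 (SE 0.314, adjusted p = 0.00166). No pair of its groups overlapped. Rpl12 was the other member that fell with narciclasine, with a change of −0.26 (SE 0.0688, adjusted p = 0.00395). Rps9 and Rpl21, which had risen with TGF-β1, had changes of −0.016 (adjusted p = 0.937) and 0.072 (adjusted p = 0.718), which did not pass.

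**Figure D3:**
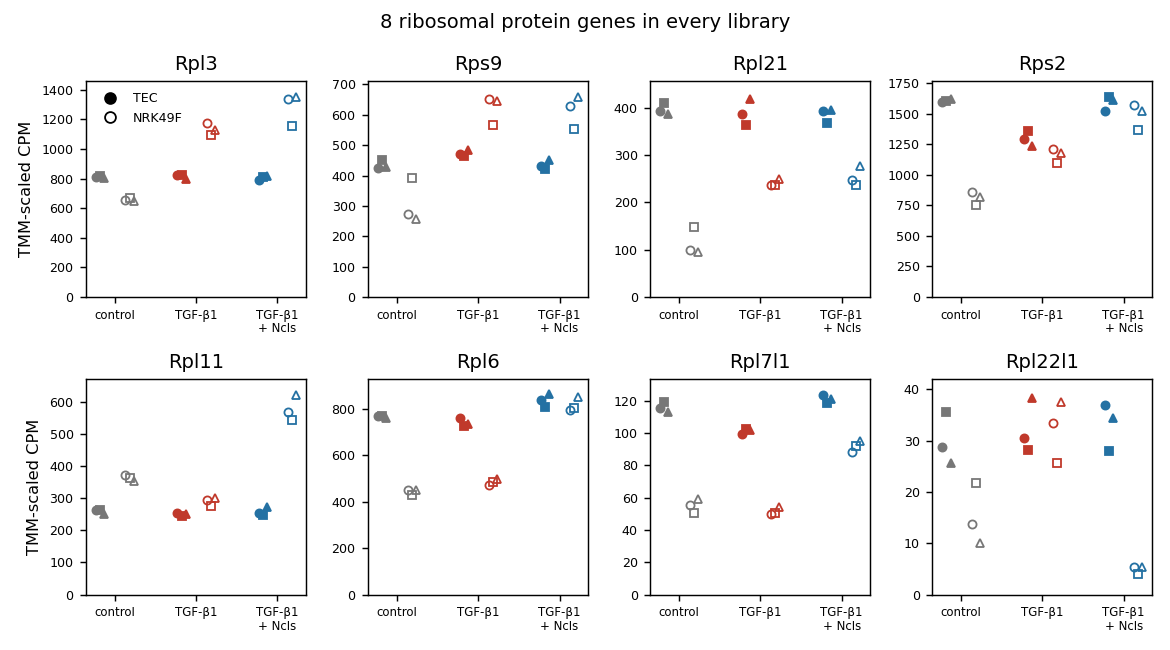
Level (CPM) in every library of Rpl3, Rps9, Rpl21, Rps2, Rpl11, Rpl6, Rpl7l1 and Rpl22l1, by group, with filled markers for TECs and open markers for NRK49F. In NRK49F Rpl11, Rpl6 and Rpl7l1 are highest with narciclasine, where Rpl22l1 lies between 3.97 and 5.37 CPM.

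Set against NRK49F control, cells with TGF-β1 and narciclasine had 52 of 73 members higher (71.2%) and 1 lower (1.37%), where 33.4% of all genes rose and 33.4% fell. The median was 0.487 log2 units, a fold of 1.40, against −0.010 for all genes, and 72 of 73 members had a positive value. Without replicate 2 of every group, 65 were higher and 1 lower. Both subunits had like medians, 0.486 in the small and 0.484 in the large. Of members with longer mouse mRNAs 30 of 35 were higher (85.7%), and of shorter ones 21 of 36 (58.3%). The log2 change had a Spearman rho of 0.444 with that length, and the cause was not tested. Rpl21 rose by 1.15, Rps9 by 1.00, Rpl3 and Rpl14 by 0.96 each, and Rps3 by 0.89. Rps27l, a paralog of Rps27 that p53 can induce, rose by 0.58 (SE 0.150, adjusted p = 0.00605). Rps4x, Rps6, Rps21, Rps25 and Rps27 did not pass in any of the 3 NRK49F comparisons. Of these, Rps21 had only 276 counts over the 9 libraries, so a change in it could be missed. Rpl39 had 0, 0 and 2.99 CPM in the control libraries, 1.31, 2.38 and 0 with TGF-β1 and 3.31, 1.41 and 6.16 with added narciclasine, too few counts to show a difference.

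In TECs the differences were small and went both ways. With TGF-β1 18 of 80 members rose (22.5%) and 5 fell (6.25%), where 34.1% of all genes rose and 34.9% fell, and members ranged from −0.31 to 0.28 with a median of 0.034 against −0.005. The direction depends on the scaling, since total counts gave 1 higher and 32 lower, or 3.03% higher in place of 78.3%. Total counts moved the median of all genes to −0.135 and that of the members to −0.096, so the members' distance from it stayed at 0.039. Without replicate 2 of every group 35 rose and 6 fell. Leaving out TGF-β1 replicate 1 gave 11 that rose, and leaving out TGF-β1 replicate 3 gave 8 that fell.

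Rps2 (ENSMUSG00000044533) had 1595, 1602 and 1622 CPM in the control libraries, 1296, 1357 and 1234 with TGF-β1 and 1524, 1639 and 1613 with added narciclasine. All 3 TGF-β1 libraries lay below control. Rps2 fell with TGF-β1, changing by −0.31 (SE 0.0304, adjusted p = 4.51e-08), and rose with narciclasine by 0.30 (SE 0.0304, adjusted p = 1.78e-07). Rpl7l1, Rpl8 and Rpl18 also fell with TGF-β1, with changes of −0.20, −0.18 and −0.18. Rplp0 (ENSMUSG00000067274), a common reference gene in PCR assays, had 1407, 1410 and 1387 CPM in the control libraries, 1576, 1576 and 1591 with TGF-β1 and 1543, 1585 and 1580 with added narciclasine. It rose with TGF-β1 by 0.17 (SE 0.0204, adjusted p = 8.68e-10), with no overlap, and its change with narciclasine, −0.011 (SE 0.0204, adjusted p = 0.680), did not pass. Rps24, mutated in some human Diamond-Blackfan anaemia, had 488, 497 and 472 CPM in the control libraries, 557, 522 and 629.7 with TGF-β1 and 456, 412 and 469 with added narciclasine. It rose by 0.23 (SE 0.0800, adjusted p = 0.0398) and fell with narciclasine, with a change of −0.35 (SE 0.0806, adjusted p = 0.00985). The TGF-β1 call of Rps24 ended without narciclasine replicate 1, narciclasine replicate 3, TGF-β1 replicate 1, TGF-β1 replicate 3, control replicate 1, control replicate 2 or control replicate 3 (log2 0.15 to 0.25, adjusted p = 0.0510 to 0.112). Rpl3 and Rpl11 had TGF-β1 changes of 0.0080 (adjusted p = 0.762) and −0.052 (adjusted p = 0.123), which did not pass.

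Narciclasine added to TGF-β1 in TECs raised 13 members (16.2%) and lowered 7 (8.75%), where 26.8% of all genes rose and 25.5% fell. The median was 0.033 against 0.002. By total counts 21 rose and 7 fell, but 11 and 11 did with RLE size factors, 12 and 11 with DESeq2 and 13 and 13 with no filter on low counts, so the excess of rises was not kept with these. Without replicate 2 of every group 18 rose and 10 fell. Leaving out TGF-β1 replicate 1 or 2 gave 8 that rose, without TGF-β1 replicate 2 there were 12 that fell, and without narciclasine replicate 3 there were 11. Rpl10, a late addition to the large subunit, rose by 0.29 (SE 0.0802, adjusted p = 0.0234), Rpl7l1 by 0.26 and Rpl6 by 0.18 (SE 0.0239, adjusted p = 6.27e-08). The call of Rpl10 ended without narciclasine replicate 1, narciclasine replicate 2, TGF-β1 replicate 1 or TGF-β1 replicate 2 (log2 0.22 to 0.28, adjusted p = 0.0653 to 0.0858). Besides Rps24, Rps15a, Rpl17 and Rps9 fell the most, with changes of −0.15, −0.14 and −0.12. Rpl22l1 had 28.7, 35.5 and 25.5 CPM in the control libraries, 30.5, 28.2 and 38.3 with TGF-β1 and 37.0, 27.9 and 34.4 with added narciclasine, with groups that overlapped and no call. Its partner Rpl22 had 85.4, 93.2 and 83.9 CPM in the control libraries, 98.9, 90.0 and 102 with TGF-β1 and 93.1, 79.7 and 90.5 with added narciclasine. For NRK49F there was no entry named Rpl22, so the partner could not be followed there.

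Against control, TECs with TGF-β1 and narciclasine had 13 members higher (16.2%) and 1 lower (1.25%), where 32.4% of all genes rose and 30.6% fell. The median was 0.060 against 0.000. By total counts this was 2 higher and 22 lower, and without replicate 2 of every group 41 and 1. Leaving out narciclasine replicate 1 gave 8 that rose, and leaving out its replicate 2 gave 20. Rpl28 rose by 0.30 (SE 0.0617, adjusted p = 0.00279), Rpl10 by 0.25 and Rpl23a by 0.20, and Rpl12 fell, with a change of −0.059 (SE 0.0228, adjusted p = 0.0232). The call of Rpl10 ended without narciclasine replicate 1, narciclasine replicate 2, TGF-β1 replicate 1, control replicate 2 or control replicate 3 (log2 0.18 to 0.26, adjusted p = 0.0624 to 0.126). That of Rpl23a ended without narciclasine replicate 1, narciclasine replicate 3, TGF-β1 replicate 1, control replicate 1 or control replicate 3 (log2 0.17 to 0.19, adjusted p = 0.0758 to 0.141). That of Rpl12 ended without control replicate 3 (log2 −0.048, adjusted p = 0.119). Rps25, Rps27, Rps27l, Rpl38, Rpl39, Rplp1 and Rplp2 did not pass in any of the 3 TEC comparisons.

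**Figure D4:**
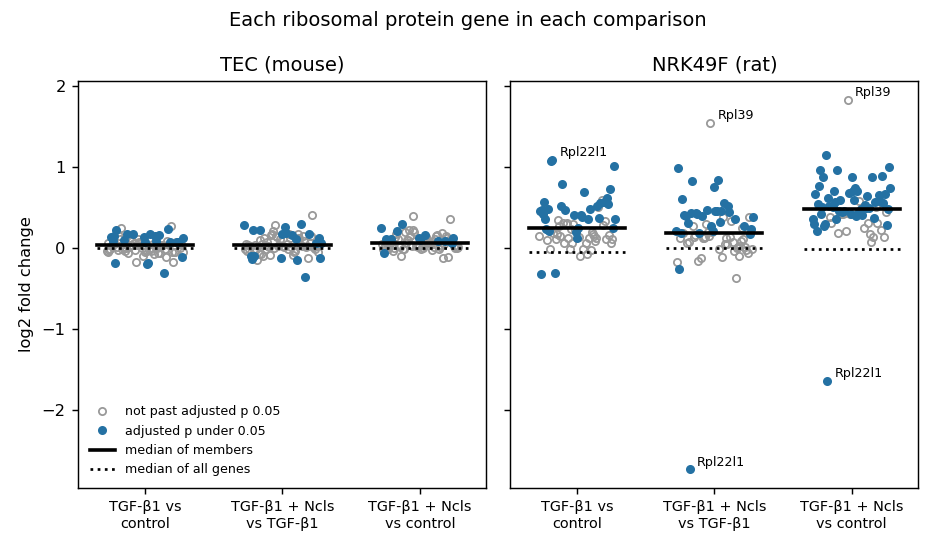
Log2 change of each member in the 3 comparisons in TECs and NRK49F, filled where the adjusted p was under 0.05. Solid lines are the members' medians (0.253, 0.188 and 0.487 in NRK49F) and dotted lines those of all genes tested.

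The difference between the kinds of cell was tested for the 70 shared members in 1 fit of all 18 libraries. The TGF-β1 change was higher in NRK49F than in TECs for 27 members (38.6%) and lower for 1, where 30.2% and 31.4% of all genes were higher and lower, with a median difference of 0.248 against −0.022. It was 0.81 (SE 0.0641, adjusted p = 8.63e-12) for Rpl3, 0.86 (SE 0.0727, adjusted p = 2.85e-11) for Rps2 and 0.92 (SE 0.176, adjusted p = 4.32e-04) for Rps9. Rpl11 was the one with a lower change, −0.24 (SE 0.0662, adjusted p = 0.00276). For narciclasine added to TGF-β1, 16 members were higher and 4 lower, where 19.9% and 27% of all genes were, with a median of 0.115 against −0.058. Rpl11 differed by 0.88 (SE 0.0662, adjusted p = 1.13e-11), Rpl6 by 0.51 (SE 0.0551, adjusted p = 1.06e-08) and Rpl22l1 by −2.83 (SE 0.379, adjusted p = 3.33e-05). Without NRK49F control replicate 2 the TGF-β1 counts were 41 and 1, and without replicate 2 of every group they were 47 and 1, with 27 and 8 for narciclasine. These differences cannot be told apart from those between species and annotations.

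Some members rose in both. With TGF-β1, 9 rose in TECs and NRK49F, 56.2% of the 16 shared members that rose in TECs and 29.0% of the 31 that rose in NRK49F, among them Rplp0, Rpl5 and Rpl13a. Of all 70 shared members 44.3% rose in NRK49F, and of the 3414 symbol-matched genes that rose in TECs 38.7% did. Scaled by total counts, 1 of all 80 TEC members rose with TGF-β1, so this overlap depends on the scaling. With narciclasine against TGF-β1 it was also 9, 75% of 12 and 31.0% of 29, among them Rpl6, Rpl7l1 and Rps2, where 41.4% of the shared members and 51.5% of the 3023 matched genes that rose in TECs rose in NRK49F. No test of these overlaps was made. No member fell in both in either comparison. Across the 70 members the changes in the 2 kinds of cell had a Pearson r of 0.0753 for TGF-β1. It was 0.119 for narciclasine added to TGF-β1 and −0.171 for TGF-β1 with narciclasine against control. These values are a description over genes that share libraries and depth.

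**Figure D5:**
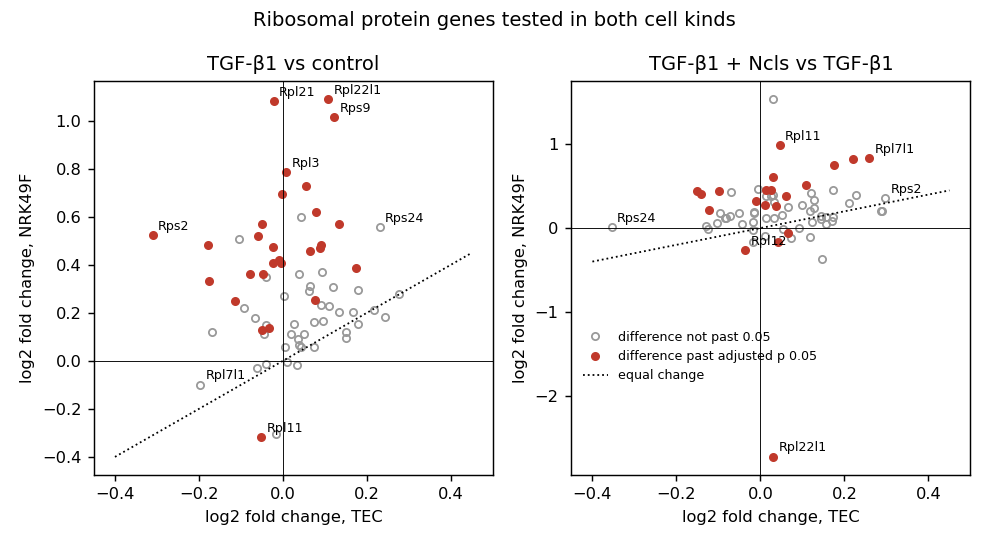
Log2 change in NRK49F (y axis) against TECs (x axis) for the 70 shared members, for TGF-β1 against control and for narciclasine added to TGF-β1. Red points differ between the kinds of cell at an adjusted p under 0.05, and the dotted line marks equal change. The spread is wider along the NRK49F axis.

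Other genes tied to the ribosome were counted in the same way, against 33.7% of all genes that rose and 38% that fell with TGF-β1 in NRK49F, 31.6% and 31.1% with narciclasine there, and 34.1%, 34.9%, 26.8% and 25.5% in TECs in the same order. Of other mRNAs known to carry a TOP tract, 10 of 18 tested rose and 2 fell with TGF-β1 in NRK49F (median 0.335), and 12 rose and 1 fell with narciclasine (0.317). Npm1, a nucleolar chaperone, rose with TGF-β1 by 1.17 (adjusted p = 1.16e-10) and the elongation factor subunit Eef1b2 by 1.22. Narciclasine raised the initiation factor subunits Eif3f by 1.04 and Eif3a by 0.94. In TECs 9 of 20 rose and 5 fell with TGF-β1 (0.027), and 7 rose and 8 fell with narciclasine (−0.039). None of 7 snoRNA host genes was among the genes tested.

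Chaperones escort ribosomal proteins to the nucleus and the nascent ribosome. In TECs 4 of 6 fell and none rose with TGF-β1 (median −0.247), and 3 rose with narciclasine. In NRK49F 2 rose and none fell with TGF-β1 (0.195), and 4 rose and 1 fell with narciclasine (0.518). Grwd1, which accompanies Rpl3, had changes of −0.57 and 0.56 in TECs and of 0.089 and 0.96 in NRK49F. Tsr2, which carries Rps26, rose by 0.95 with narciclasine in NRK49F, and Bccip, whose yeast counterpart escorts Rpl23, by 0.72. Whether these lists differ between the kinds of cell was not tested as a list.

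Of the regulators, 7 of 13 rose and 5 fell in NRK49F with TGF-β1, and 2 of 15 rose and 7 fell in TECs, where 33.7% and 38% of all genes rose and fell in NRK49F and 34.1% and 34.9% in TECs. Myc, an activator of ribosomal protein genes, went from a mean of 39.7 to 192 and 204 CPM in NRK49F, a TGF-β1 change of 2.27 (adjusted p = 1.42e-08). In TECs Myc rose too, from 171.5 to 210 and 241.7 CPM, a TGF-β1 change of 0.29 (adjusted p = 1.21e-10). Eif4ebp1, a translation repressor under mTOR, went from 10.2 to 49.2 and back to 14.1 CPM in NRK49F. In TECs its means were 81.5, 75.5 and 62.6 CPM. Larp1, the binder of TOP tracts, rose by 0.96 in NRK49F and changed by −0.34 in TECs with TGF-β1. Tsc1, among the 5 that fell in NRK49F, changed by −1.15 with TGF-β1 (adjusted p = 1.07e-08) and by 1.17 with narciclasine. Of 9 genes of ribosome stress and surveillance, 4 rose and 2 fell in NRK49F with narciclasine, among them Mdm2, the ligase of p53, which rose by 1.98, and Cdkn1a, a p53 target, by 1.10. In TECs Mdm2 and Cdkn1a fell with narciclasine, with changes of −0.35 and −0.22. The count there was 5 up and 3 down.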

How the data were processed

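Polyadenylated RNA of 18 libraries was sequenced, per the labels' protocols. The values the authors deposited are read counts per gene, not normalised, in 1 table per cell kind. HISAT2 2.1.0, DESeq2, featureCounts and the mm10 build are listed, without roles and for the rat samples too, per the submitters' processing notes. The rat build, and whether counting used strand or multi-mapped reads, is not given in the sources used here. No column was left out.

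Each table was fitted with edgeR 4.0.16 (R 4.3.3, limma 3.58.1), using filterByExpr, TMM scaling and the robust quasi-likelihood test over the 9 libraries of a cell kind, with Benjamini-Hochberg adjustment over all genes tested. The test was checked on simulated data, drawn independently for each gene. The simulated libraries had no offset shared between genes, so the check does not cover that of replicate 2. The difference between cell kinds was an interaction term over symbol-matched genes. CPM are counts relative to the TMM-scaled total, and SDs are over 3 libraries. Shares were compared by exact two-sided permutation tests (scipy 1.17.1). Where a symbol had several rows, the row with most counts was kept. Alternatives were DESeq2 1.42.0, other scalings, no filter, summed rows, a replicate block and left-out libraries. Mouse mRNA lengths are from a GRCm38 annotation.

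The named members were a preset list, the 4 members each way with the largest non-overlapping changes per comparison at 5 CPM or more, and the 3 highest and 3 lowest in control. From each comparison list up to 4 changed genes were named. Members named beyond this rule illustrate a count and were chosen after their values were seen. Some genes are not reported here by name. Members and lists were chosen with earlier results of these data known.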

Additional observations from a re-analysis of the deposited data

Results flagged for a closer look

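The results here are members whose change differed between the cell kinds in the interaction test of the 18-library edgeR fit (adjusted p under 0.05), given as NRK49F minus TEC in log2 units. For TGF-β1 against control, Rpl11 had a lower value in NRK49F, −0.24. The value was higher in NRK49F by 0.21 for Rpl6, 0.24 for Rplp0, 0.42 for Rpl10a, 0.44 for Rpsa, 0.44 for Rpl4, 0.47 for Rpl13a and 0.52 for Rpl12. It was higher by 0.53 for Rps27l, 0.57 for Rps3, 0.69 for Rpl18, 0.73 for Rplp2, 0.81 for Rpl3, 0.86 for Rps2, 0.92 for Rps9, 1.01 for Rpl22l1 and 1.13 for Rpl21. The call of Rplp2 ended without NRK49F TGF-β1 replicate 1, NRK49F TGF-β1 replicate 3, NRK49F narciclasine replicate 1, TEC narciclasine replicate 1, TEC TGF-β1 replicate 1, TEC TGF-β1 replicate 2, NRK49F control replicate 1, NRK49F control replicate 3, TEC control replicate 1, TEC control replicate 2 or TEC control replicate 3 (log2 0.55 to 0.76, adjusted p = 0.0502 to 0.140). That of Rps27l ended without NRK49F TGF-β1 replicate 3, TEC TGF-β1 replicate 1, TEC TGF-β1 replicate 2, NRK49F control replicate 1, NRK49F control replicate 3 or TEC control replicate 2 (log2 0.41 to 0.56, adjusted p = 0.0527 to 0.102). That of Rpl22l1 ended without TEC control replicate 2 (log2 0.86, adjusted p = 0.0517).

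For narciclasine added to TGF-β1, the value was lower in NRK49F for Rpl22l1 (−2.83) and Rpl12 (−0.29). It was higher by 0.17 for Rpl4, 0.20 for Rps3, 0.25 for Rpsa, 0.27 for Rplp0, 0.27 for Rpl5, 0.49 for Rpl17 and 0.51 for Rpl14. It was higher by 0.51 for Rpl6, 0.52 for Rpl7l1, 0.53 for Rps15a, 0.54 for Rpl23a and 0.88 for Rpl11. The call of Rps3 ended without NRK49F TGF-β1 replicate 1, NRK49F TGF-β1 replicate 2, NRK49F narciclasine replicate 3, TEC narciclasine replicate 2 or TEC TGF-β1 replicate 1 (log2 0.14 to 0.19, adjusted p = 0.0642 to 0.111). Cell kind and species cannot be told apart in any of these.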

How the results depend on the processing

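Only the named members were checked for a reversed direction, so the list that follows is not one of all members. Among the named members, scaling by total counts reversed the direction in these comparisons. With TGF-β1 against control, Rpl6 in NRK49F became −0.0575, and in TECs Rpl10a became −0.0665, Rpl3 −0.122, Rps14 −0.125, Rps19 −0.0931, Rps4x −0.0559, Rps6 −0.126 and Rps9 −0.00839. With narciclasine and TGF-β1 against control in TECs, Rpl17 became −0.0916, Rpl5 −0.0890, Rpl8 −0.0989, Rps15a −0.0851, Rps19 −0.0123, Rps4x −0.0425, Rps6 −0.0707 and Rpsa −0.0851. By total counts, members higher and lower were 20 and 7 (NRK49F, TGF-β1), 1 and 32 (TECs, TGF-β1), 21 and 7 (TECs, narciclasine against TGF-β1), 2 and 22 (TECs, against control) and 25 and 2 (interaction, narciclasine). The members lower in NRK49F with TGF-β1 were 1 with RLE scaling, no filter or the replicate block. The members lower in TECs were 8 with no filter for TGF-β1, 11 with RLE or DESeq2 and 13 with no filter for narciclasine, and 2 with RLE, DESeq2, no filter or the replicate block against control. The interaction for narciclasine had 2 lower with no filter.

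An alternative planned with earlier results known left out replicate 2 of every group. Members higher were then 58 for TGF-β1, with 4 lower for narciclasine, in NRK49F, 35 for TGF-β1 and 41 against control in TECs, and 47 and 27, with 8 lower for narciclasine, in the interaction. For the shares of counts, leaving out libraries was chosen after seeing the data. Without replicate 2 of every group they differed by −0.144 points in TECs and 0.378 in NRK49F for TGF-β1, and by 0.976 in NRK49F against control. Leaving out 1 library at a time, members higher and lower ranged from 25 to 48 and 1 to 2 (TGF-β1), 20 to 33 and 2 to 4 (narciclasine) and 43 to 63 and 1 (against control) in NRK49F. In TECs they ranged from 11 to 22 and 5 to 8, 8 to 14 and 7 to 12, and 8 to 20 and 0 to 2. The interaction ranged from 21 to 41 and 1 to 2 for TGF-β1 and 14 to 24 and 2 to 5 for narciclasine. Share differences ranged from 0.134 to 0.304, 0.475 to 0.671 and 0.678 to 0.884 points in NRK49F, and from −0.254 to −0.180, 0.0878 to 0.189 and −0.134 to −0.033 in TECs.

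Same-numbered libraries did not deviate together in every pair (correlations −0.10 to 0.17 in TECs and −0.04 to 0.12 in NRK49F), so the numbers were not taken as pairs. TGF-β1 and narciclasine replicate 2 had correlations of 0.166 and 0.118, and whether they share a source was not established. With the replicate block 28, 25 and 46 members rose in NRK49F and 17, 10 and 10 in TECs. The cause of these shifts was not tested. Low counts limit members such as Rpl39, Rps21, Rplp2 and Rpl22l1 in NRK49F, and 3 libraries per group cannot bring an exact p below 0.1.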

Other observations

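Several rat members have more than 1 entry under one symbol. The Rpl21 entry used had 28785 counts over the 9 libraries and another 22373, Rps10 had 9719 and 7394, and Rps19l2 had 18799 and 12071. The 2 entries of Rpl7a have identical counts of 34481 in sum, and Rplp2 has the same 1577 counts as LOC100911575. Which copy gave rise to the reads was not tested.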
